A study of Mus musculus with 12 samples.

Results

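Cathepsins are proteases of endosomes and lysosomes, and 10 of their genes (Ctsa, Ctsb, Ctsc, Ctsd, Ctse, Ctsh, Ctsl, Ctss, Ctsw and Ctsz) were followed here in mouse CD8 T cells of a triple linker histone H1 knockout (cTKO) and of wild-type (WT) mice. They were taken by gene symbol from the 24421 genes of the authors' deposited table, and all 10 were present, had reads and carried an adjusted p-value, as did 12972 genes in all. In cTKO cells 1 cathepsin gene rose (Ctsd), 2 fell (Ctsc and Ctss) and 7 did not pass the test, at the authors' DESeq2 adjusted p under 0.05, which 13.4% of all genes tested passed. The make-up of the cathepsin transcripts shifted with them: Ctsd held 53.8% and 48.9% of the reads of the 10 genes in the cTKO libraries, against 30.7% and 31.7% in the WT libraries.

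The groups are CD8 T cells sorted from the spleens of mice of the C57BL/6 strain with the genotype cTKO (1 female, 1 male) and with the genotype WT (1 female, 1 male), with 500000 cells sorted for each sample, per the labels. Polyadenylated RNA was sequenced with paired ends. The cTKO genotype lacks the H1 genes Hist1h1c, Hist1h1d and Hist1h1e; the sources used here give neither their age nor the Cre line that deletes. Linker histones bind the nucleosome and its flanking DNA and help to compact chromatin, and the series asks what their loss does in lymphocytes. B and CD4 T cells, also sampled in the series, were not analysed here.

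Whole reads of each library were worked back from the deposited means and fold changes. Where these left more than 1 solution, a dispersion fit made here to other genes chose between them. This gave 1 solution for 18111 of 18153 genes with a read (99.8%) and for all 10 cathepsins, with Ctsd settled by that fit. The libraries held 16240454 and 11479720 recovered reads in cTKO, and 18611978 and 12537603 in WT. The larger library of each genotype was read as the female one from Ddx3y and Xist, so library size and sex cannot be told apart. The targeted genes Hist1h1c, Hist1h1d and Hist1h1e had 0 reads in both cTKO libraries, and had 41 and 56, 5 and 11, and 64 and 112 reads in the WT libraries. That side of the table was therefore read as cTKO, and the reverse reading would turn every direction given here. Of the CD8 T cell marker list, 8 of 11 genes were in the table. None of these 8 passed by DESeq2, and 1 was lower at an unadjusted p under 0.05. By limma 0 of the 6 with recovered reads passed, and 1 was lower at an unadjusted p under 0.05. Cd8a had 15368 and 20811 normalized reads in cTKO and 21825 and 23208 in WT. With 2 animals per genotype, p-values rest only on the spread between these animals, drawn toward a trend over all genes. That spread includes any difference between the sexes, except in the fit with sex as a block. In sorted bulk cells, fewer cells of a type and less RNA per cell cannot be told apart.

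Cathepsins are made as inactive precursors that are cleaved as they reach acidic compartments. Most are cysteine proteases related to papain, cathepsins D and E are aspartic proteases, and cathepsin A is a serine carboxypeptidase. In cytotoxic lymphocytes they are known for activating the granzymes of the lytic granule, in antigen-presenting cells for trimming antigens and the invariant chain of MHC class II, and in most cells for general protein turnover in the lysosome.

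Per kilobase of exon, Ctsd was the most abundant of the 10 in the mean of the 4 libraries, followed by Ctsw, Ctss, Ctse, Ctsa, Ctsb, Ctsc, Ctsz, Ctsl and Ctsh. The level of Ctsd was 14469 and 16553 normalized reads per kilobase in cTKO, against 8955 and 8593 in WT. Ctsw had 9122 and 12796 per kilobase in cTKO, against 5532 and 8313 in WT, so it lay below Ctsd in every library. Ctss had 723 and 1234 per kilobase in cTKO, against 2941 and 2451 in WT, which placed it above the 7 less abundant genes in WT but not in cTKO. The order from Ctse to Ctsz differed between the genotypes. Ctsz, at 883 and 1191 per kilobase, was above Ctsc, at 509 and 842, in the cTKO libraries; in WT Ctsz had 1319 and 1234 and Ctsc 2066 and 1211, which overlapped. Ctsl and Ctsh stood far below the rest, with 37.2 to 54.7 and 2.05 to 15.0 normalized reads per kilobase over the 4 libraries.

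**Figure D1:**
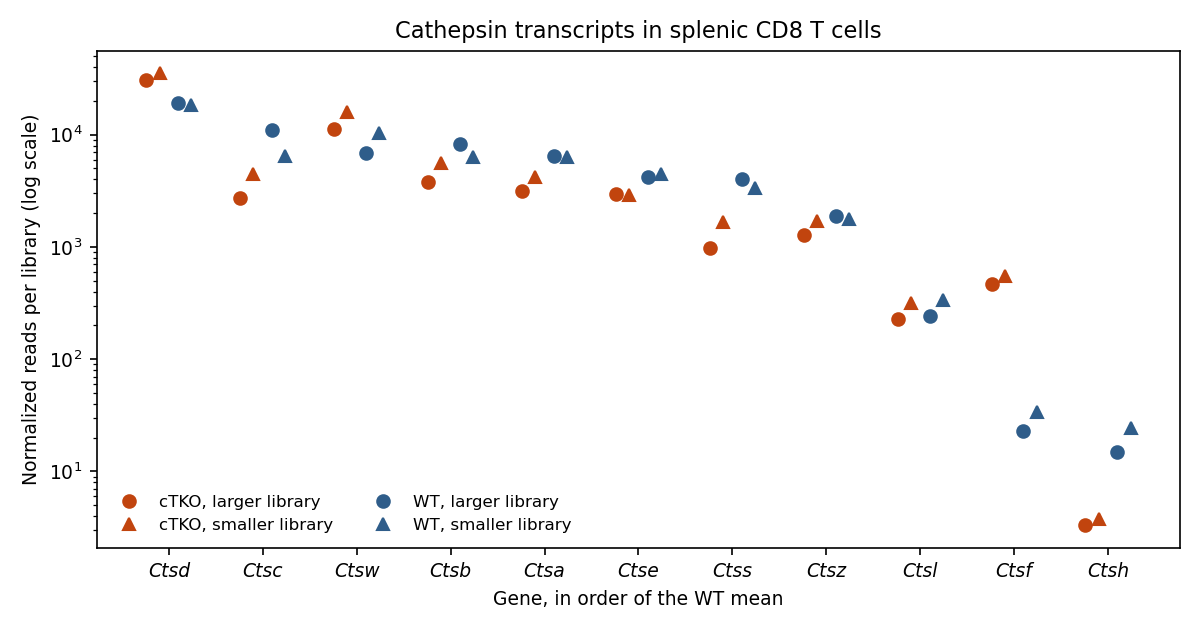
Normalized reads of the 10 cathepsin genes and of Ctsf in each library, on a log axis, with cTKO in orange to the left of WT in blue and genes ordered by the WT mean. The 2 genotypes are apart for every gene but Ctsl; Ctsd, Ctsw and Ctsf lie higher in cTKO and the others lower.

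Cathepsin D, an aspartic endoprotease of the lysosome that degrades proteins and processes other lysosomal enzymes, was the member that rose. Ctsd (chr7:142375910-142387827 in GRCm38.p6) had 30774.5 and 35207.5 normalized reads in the larger and the smaller cTKO library, against 19047 and 18278 in the WT libraries. Neither WT library reached the lower of the cTKO pair, and the replicates of each genotype were close to each other. The log2 fold change in the authors' deposited table was 0.82 (SE 0.28), a 1.77-fold higher level in cTKO, with an adjusted p of 0.0328 by the authors' DESeq2 test. Among all genes tested 13.4% passed in either direction, 9.77% as higher and 3.61% as lower, so 1 higher among 10 cathepsins is close to the share of all genes. A second set of whole reads also matched the mean and fold change of Ctsd, with 38429 and 27492 reads in cTKO and 18697 and 18992 in WT. It was set aside because its implied dispersion was off by -0.18 on the natural log scale from a fit made here to other genes. Of the exon length of Ctsd 31.5% is shared with the annotated Gm49369 on the same strand, so reads there cannot be assigned to Ctsd alone.

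The other aspartic member, cathepsin E, is an endosomal protease found mainly in immune and epithelial cells. Ctse had 2955 and 2875 normalized reads in cTKO, against 4181 and 4449 in WT. Both cTKO libraries were below both WT libraries, with a log2 fold change in the authors' deposited table of -0.57 (SE 0.29) that did not pass (DESeq2 adjusted p 0.187). Summed over the aspartic pair, cTKO libraries had 33730 and 38082 normalized reads and WT libraries 23228 and 22727, nearly all of them from Ctsd.

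Cathepsin C, or dipeptidyl peptidase I, removes the N-terminal dipeptide that keeps granzymes inactive. Ctsc (chr7:88278024-88315861) had 2713 and 4483 normalized reads in cTKO, against 11004 and 6448 in WT. The genotypes did not overlap, but the WT libraries differed by 1.71 times, with the female one higher. Its log2 fold change in the authors' deposited table was -1.28 (SE 0.37), a 2.43-fold lower level in cTKO (DESeq2 adjusted p 0.00643). The ratio of cTKO to WT was 0.247 in the female pair and 0.695 in the male pair; whether the pairs differ was not tested.

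Granzymes, the substrates of cathepsin C, went the other way at the transcript level. Of 9 tested genes of the lytic granule, 5 rose by the authors' DESeq2 test, beside 9.77% of all genes tested. The 9 had a median log2 fold change of 2.15, against 0.04 over all genes tested. Gzma, a tryptase of the granule, had 3093 and 2347 normalized reads in cTKO, against 362 and 134 in WT (log2 fold change 3.45, SE 0.42, DESeq2 adjusted p 5.09e-14 in the authors' deposited table). Gzmb, the granzyme that cleaves caspases, changed by 3.22 (SE 0.40, adjusted p 1.72e-13 by the same DESeq2 test), and Gzmk, Gzmm and the death ligand gene Fasl also rose. The pore-forming protein gene Prf1 had a log2 fold change of -0.24 and did not pass (DESeq2 adjusted p 0.690 in the authors' deposited table).

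Cathepsin W is a cysteine protease restricted to cytotoxic T cells and natural killer cells, whose substrates are little known. Ctsw (chr19:5465043-5468628) had 11320.2 and 15880.1 normalized reads in cTKO, against 6866 and 10316 in WT. The smaller library was the higher one in each genotype, and the lower cTKO library lay only slightly above the higher WT library. The log2 fold change of 0.66 (SE 0.33) in the authors' deposited table did not pass (DESeq2 adjusted p 0.178). Markers of natural killer cells moved in the same direction: 8 of 11 tested rose and 1 fell, beside 9.77% and 3.61% of all genes tested. The summed normalized reads of these markers were 9815 and 8709.65 in cTKO, against 1634 and 1986 in WT. Among them Ncr1, a defining receptor of that lineage, had only 22 and 1 reads in cTKO and 2 and 4 in WT, while Klrb1c had 1606 and 881 in cTKO and 180 and 119 in WT. All 13 effector and memory CD8 markers, which share Eomes and Klrg1 with that list, rose as well. Eomes was the largest part of the natural killer sum, averaging 2929 normalized reads over the libraries. Its log2 fold change was 2.08 in the authors' deposited table. The part of either list in the level of Ctsw was not tested.

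Cathepsin S cleaves the invariant chain of MHC class II in antigen-presenting cells and works at neutral as well as acid pH. Ctss (chr3:95526786-95556405) had 981 and 1676 normalized reads in cTKO, against 3994 and 3329 in WT. The higher cTKO library stayed well below the lower WT library. Its log2 fold change of -1.46 (SE 0.34) in the authors' deposited table, a 2.76-fold lower level in cTKO, had the smallest adjusted p of the 10 (0.000462, DESeq2), rank 564 of the 12972 genes tested. In the female pair the ratio of cTKO to WT was 0.246, and in the male pair 0.503.

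The class II pathway, in which cathepsin S acts, moved in the same direction. Of its 10 tested genes 5 fell and 1 rose, with a median log2 fold change of -1.41. Of all genes tested 3.61% fell and 9.77% rose. Cd74, which encodes the invariant chain, had 209 and 114 normalized reads in cTKO, against 413 and 553 in WT (log2 fold change -1.57, SE 0.41, DESeq2 adjusted p 0.00237, from the authors' deposited table). The class II chain genes H2-Aa and H2-Ab1 and the peptide-loading genes H2-DMa and H2-Ob fell too, with log2 fold changes of -2.63, -2.75, -1.91 and -1.44 in the authors' deposited table. H2-DMb1, another peptide-loading gene, rose by 1.60 on the log2 scale there. H2-DMa and H2-Ob were the more abundant of these, at 404 and 549 and at 663 and 866 normalized reads in cTKO, against 1723 and 1848 and against 2258 and 1880 in WT.

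Markers of B cells, which also carry class II and Ctss, had summed normalized reads of 278 and 319 in cTKO, against 1480 and 1066 in WT. Most of this sum was Cd79b, with 176 and 145 reads in cTKO and 1612 and 762 in WT. It was the only 1 of 7 tested B cell markers to pass (14.3%, beside 13.4% of all genes tested). The defining B cell gene Ms4a1 had 7 and 3 reads in cTKO and 3 and 5 in WT, and Pax5 had 0 and 1 in cTKO and 0 in both WT libraries. Of 13 tested myeloid and dendritic markers 2 rose, the integrin genes Itgam and Itgax. That is 15.4% of this list, beside 9.77% of all genes tested. The list summed to 2572 and 906 normalized reads in cTKO, against 229 and 208 in WT. Most of this sum was Itgax and Itgam, which averaged 685 and 148 normalized reads over the libraries. By limma 2 of these 13 were higher and 1 was lower, the Fc receptor gene Fcgr3 with 1 and 0 reads in cTKO and 28 and 11 in WT. Csf1r, a defining macrophage gene, had 25 and 6 reads in cTKO and 2 and 3 in WT, and Mpeg1, another, had 2 and 2 in cTKO and 5 and 5 in WT. The part of these cells in the level of Ctss was not tested.

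Cathepsin L is an endoprotease of the lysosome and of the thymic epithelium, where it takes the role that cathepsin S has elsewhere. Ctsl had 229 and 314 normalized reads in cTKO, against 244 and 337 in WT. It was the only member whose genotypes overlapped; the log2 fold change was -0.10 in the authors' deposited table (SE 0.39, DESeq2 adjusted p 0.909), with a 95% interval from -0.87 to 0.67. With all fold changes re-centred on the median of genes averaging 100 normalized reads or more, a shift of -0.10, its sign turned. Of the exon length of Ctsl 28.2% is shared with Gm47123 on the opposite strand and 6.40% with Gm49230 on the same strand. Reads in these stretches are uncertain.

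Within a library, the ratio of Ctss to Ctsl was 4.28 and 5.33 in cTKO, against 16.4 and 9.87 in WT. These ratios do not depend on the size factors. The difference between the changes of the 2 genes was not tested.

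Cathepsin B is an endoprotease that also removes dipeptides from the C terminus, and it is the usual partner of cathepsin D in lysosomal protein breakdown. Ctsb had 3797 and 5600.2 normalized reads in cTKO, against 8342 and 6331 in WT. The genotypes were apart, narrowly so in the smaller libraries, where cTKO reached 0.885 of WT. The log2 fold change of -0.64 (SE 0.32) did not pass in the authors' deposited table (DESeq2 adjusted p 0.184). The ratio of Ctsd to Ctsb was 8.10 and 6.29 in the cTKO libraries, against 2.28 and 2.89 in the WT libraries, with no overlap.

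Cathepsin A is a carboxypeptidase that also protects beta-galactosidase and neuraminidase in a complex. Ctsa had 3151 and 4229 normalized reads in cTKO, against 6396 and 6295 in WT. Its replicates were closer to each other than to the other genotype, and the log2 fold change was -0.78 (SE 0.30) in the authors' deposited table, just outside the threshold (DESeq2 adjusted p 0.0640). Neurl2 and Pltp on the opposite strand share 8.82% and 13.5% of its exon length, and Fdft1 shares 16.3% of that of Ctsb. The sources used here do not say how strand was handled, so reads in these stretches are uncertain.

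Cathepsin Z removes single residues from the C terminus. Ctsz had 1272 and 1716 normalized reads in cTKO, against 1901 and 1778 in WT, and a log2 fold change of -0.30 (SE 0.31, DESeq2 adjusted p 0.582, from the authors' deposited table). The genotypes were apart by a narrow margin. Cathepsin H, an aminopeptidase, was barely detected: Ctsh had 4 and 3 reads in cTKO, against 18 and 21 reads in WT. Its log2 fold change of -2.47 had an SE of 1.27 in the authors' deposited table, and it did not pass (DESeq2 adjusted p 0.192).

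**Figure D2:**
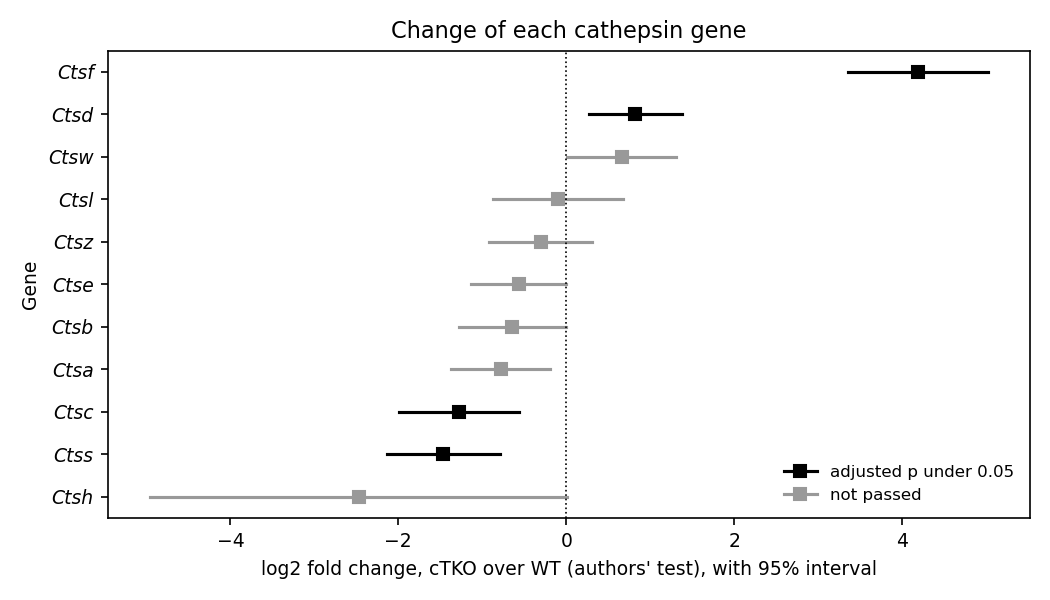
log2 fold change of each cathepsin gene in the authors' test, cTKO over WT, with its 95% interval; black marks an adjusted p under 0.05 and grey the rest. Ctsf and Ctsd passed as higher, Ctsc and Ctss as lower, and the interval of Ctsh is the widest.

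Read together, 9 of the 10 members had genotypes that did not overlap, 2 higher and 7 lower in cTKO, beside 59.6% of all genes with recovered reads (31.3% higher and 28.3% lower). The share of lower genes depends on abundance. Of genes averaging 1000 normalized reads or more, as 8 of the members do, 59.9% were apart and 42.1% were apart as lower. Their median log2 fold change was -0.21, and 11.0% of them passed the authors' test (5.8% as higher, 5.23% as lower). The members had a median log2 fold change of -0.60, and 0.04 was the median of all genes tested. All 10 moved in the same direction in the female and in the male pair of libraries, as did 72.1% of all genes with recovered reads. At an unadjusted p under 0.05 the authors' test held 7 of the 10 members, and 26.3% of all genes tested.

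The summed reads of the 10 cathepsins did not separate the genotypes, with 57198 and 71984 normalized reads in cTKO and 61990 and 57586 in WT. Ctsc held 4.74% and 6.23% of the cathepsin reads in cTKO, against 17.8% and 11.2% in WT. Ctss held 1.72% and 2.33% in cTKO, against 6.44% and 5.78% in WT. Ctsw held 19.8% and 22.1% in cTKO and 11.1% and 17.9% in WT.

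**Figure D3:**
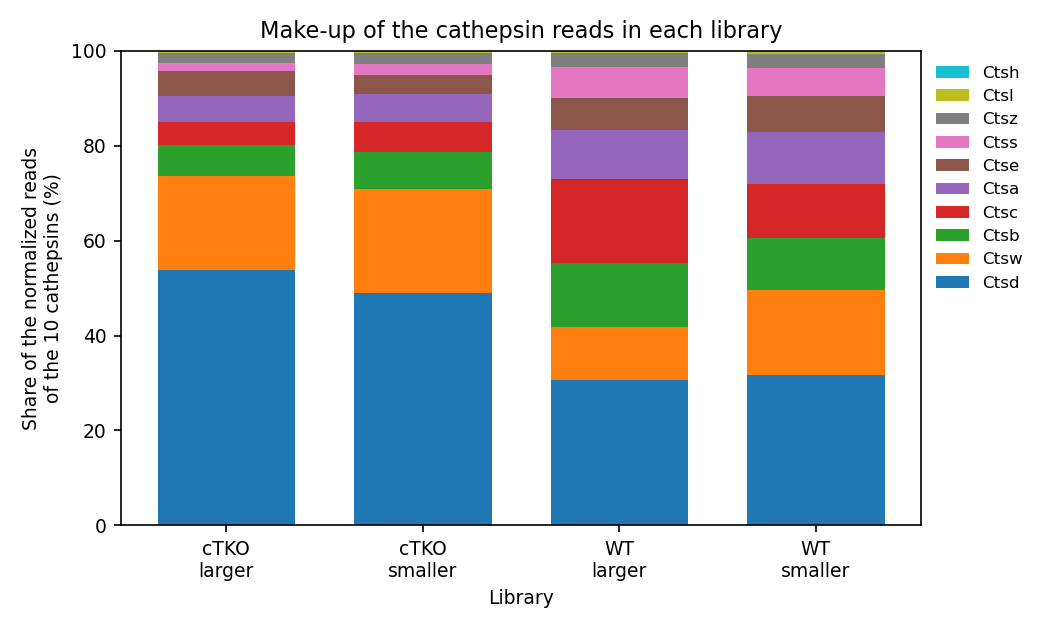
Share of the normalized reads of the 10 cathepsin genes held by each gene, in percent, for the 2 cTKO libraries on the left and the 2 WT libraries on the right. Ctsd fills 53.8% and 48.9% of the cTKO bars and 30.7% and 31.7% of the WT bars.

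Calls of single members depended on the test. In a fit by limma on the recovered reads, Ctss passed (limma adjusted p 0.0181), while Ctsc had 0.0552 and Ctsd 0.0935. In limma fits that left out the larger or the smaller cTKO library, or the larger or the smaller WT library, 0 members passed, and 4, 5, 2 and 2 of the 10 were lower at an unadjusted p under 0.05. Of all genes in the same fits 5.82%, 15.3%, 2.35% and 4.11% were lower at that threshold. The limma adjusted p ran from 0.0891 to 0.249 for Ctss, from 0.0641 to 0.501 for Ctsc and from 0.228 to 0.384 for Ctsd. In those fits the log2 fold change stayed between -1.89 and -1.12 for Ctss, between -1.66 and -0.89 for Ctsc, and between 0.72 and 0.92 for Ctsd.

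Beyond the 10 members, 13 other cathepsin genes were looked up and 2 of them were tested. Cathepsin F, a cysteine protease that can also cleave the invariant chain, rose: Ctsf (chromosome 19) had 567 and 442 reads in cTKO, against 28 and 29 reads in WT. In normalized reads that is 469.6 and 549 in cTKO and 23.1 and 33.5 in WT. Its log2 fold change of 4.19 (SE 0.43, DESeq2 adjusted p 2.91e-20 in the authors' deposited table) was rank 33 of 12972 by p-value. Without the larger or the smaller cTKO library the limma adjusted p of Ctsf was 0.162 and 0.105, at log2 fold changes of 4.28 and 4.05. Ctso had 1567 and 2029 normalized reads in cTKO, against 2644 and 2297 in WT (log2 fold change -0.46, DESeq2 adjusted p 0.349 in the authors' deposited table). Of the rest, 7 had no read in any library, and Ctsk, Ctsg, Ctsr and Cts3 had at most 3 reads in a library and no adjusted p.

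Promoter windows are shown for the 3 members that passed, since they allow the sequence around each start to be set beside its direction of change. They run from 250 bases before to 50 bases after a start of transcription. For Ctsc, for Ctsl and for the downstream window of Ctsa that start lies inside the gene span used here. The Ctsl window and the downstream Ctsa window lie wholly within their genes. The windows are RefSeq sequences of GRCm38.p6 given 5′ to 3′ on the gene's strand, and were found for 6 of the 10 members. Capitals mark CACGTG, the palindromic E-box letters that USF and TFEB proteins are known to bind, and GAAANNGAA (on either strand), part of the core of the interferon-stimulated response element. The windows are Ctsd at chr7:142387778-142388077 on the minus strand, Ctsc at chr7:88277835-88278134 and Ctss at chr3:95526536-95526835, both on the plus strand.
Ctsd: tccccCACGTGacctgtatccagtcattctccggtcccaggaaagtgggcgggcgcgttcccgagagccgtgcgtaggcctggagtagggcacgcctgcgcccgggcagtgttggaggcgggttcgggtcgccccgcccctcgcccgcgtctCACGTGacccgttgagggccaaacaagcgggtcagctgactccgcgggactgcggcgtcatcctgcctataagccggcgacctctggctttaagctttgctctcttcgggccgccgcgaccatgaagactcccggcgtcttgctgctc
Ctsc: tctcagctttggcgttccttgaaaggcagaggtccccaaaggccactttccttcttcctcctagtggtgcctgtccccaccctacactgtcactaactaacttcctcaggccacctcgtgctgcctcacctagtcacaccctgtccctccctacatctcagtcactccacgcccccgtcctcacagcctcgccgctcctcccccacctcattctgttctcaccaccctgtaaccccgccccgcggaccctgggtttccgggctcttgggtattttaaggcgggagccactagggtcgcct
Ctss: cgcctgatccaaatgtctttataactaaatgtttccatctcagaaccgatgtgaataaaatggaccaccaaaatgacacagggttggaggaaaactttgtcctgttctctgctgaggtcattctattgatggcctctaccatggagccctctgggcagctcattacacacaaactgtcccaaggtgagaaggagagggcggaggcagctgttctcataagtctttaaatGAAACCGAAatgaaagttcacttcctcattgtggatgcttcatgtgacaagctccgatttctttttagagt

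The window of Ctsd holds CACGTG at 2 places, and those of Ctsc and Ctss at none. Among all 32851 promoter windows of this length, 7.15% hold CACGTG at least once and 0.594% hold 2 or more. Of the other members with a window, the downstream one of 2 windows of Ctsa holds it at 2 places, that of Ctsl at 1 place and that of Ctsz at none; the window of Ctsf also has 1. Ctss alone of these genes has GAAANNGAA, which 8.56% of all windows hold. The upstream window of Ctsa, at the start of its gene span, holds no CACGTG. These matches describe the letters of the windows only, and their part in the change of any gene was not tested.

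Of 12 tested genes for regulators of lysosomal genes 2 fell by the authors' DESeq2 test and by limma. None rose by either, with 1 higher at an unadjusted p under 0.05. By DESeq2 3.61% of all genes tested fell and 9.77% rose. Usf1, an E-box binding factor, had 452 and 364 normalized reads in cTKO, against 1388 and 1548 in WT (log2 fold change -1.85, SE 0.32, DESeq2 adjusted p 3.94e-07 in the authors' deposited table). Tfeb, the factor best known for inducing lysosomal genes, had 298 and 393 in cTKO, against 390.3 and 473 in WT, and overlapped (DESeq2 adjusted p 0.614 in the authors' deposited table). Rragd, a Rag GTPase of the lysosomal surface, fell with 13 and 8 reads in cTKO, against 74 and 38 reads in WT (DESeq2 adjusted p 0.0310 in the authors' deposited table).

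Some inhibitors of cathepsins and of related proteases rose. Of 11 tested inhibitor genes 5 rose and 0 fell by the authors' DESeq2 test and by limma. By DESeq2 9.77% of all genes tested rose and 3.61% fell. At an unadjusted p under 0.05, 6 of the 11 were higher and 0 lower. The median log2 fold change of the 11 was 0.77. Cst7, or cystatin F, is an endolysosomal cystatin that inhibits cathepsin C. It had 6418 and 11468 normalized reads in cTKO, against 3033 and 3253 in WT, with all cTKO values above all WT values (log2 fold change 1.51, SE 0.34, DESeq2 adjusted p 0.000249 in the authors' deposited table).

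Ctla2a and Ctla2b resemble the propeptide of cathepsin L, and Ctla2a is known to inhibit that enzyme. Ctla2a had 3967 and 5050 normalized reads in cTKO, against 1368 and 1188 in WT (log2 fold change 1.82, SE 0.30, DESeq2 adjusted p 1.33e-07, from the authors' deposited table), and Ctla2b rose by 1.78 on the log2 scale there. Serpina3g, a serpin known to inhibit cathepsins B and L, had 5254 and 5839 normalized reads in cTKO, against 489 and 530.01 in WT. Its log2 fold change was 3.44 (SE 0.29, DESeq2 adjusted p 1.26e-28, from the authors' deposited table), and its relative Serpina3f changed by 4.59. Ctla2a and Ctla2b, and likewise Serpina3f and Serpina3g, are close copies of each other between which reads may have been split, so their separate values are uncertain.

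Neither of the general cystatins passed the test. Cst3, or cystatin C, had 1161 and 2030 normalized reads in cTKO, against 1660.05 and 1480.3 in WT, with a log2 fold change of 0.02 (DESeq2 adjusted p 0.977 in the authors' deposited table). Cstb, a cytosolic cystatin, had 528 and 953 in cTKO, against 1235 and 956 in WT (log2 fold change -0.57, DESeq2 adjusted p 0.331, from the authors' deposited table). The higher cTKO library of Cstb lay just below the lower WT library, and those of Cst3 lay on both sides of the WT pair.

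In other parts of the lysosome the share of genes that passed was near or below the 13.4% of all genes tested. Of 13 other lysosomal proteases and peptidases 1 rose, the dipeptidyl peptidase gene Dpp7 with 480.4 and 620 normalized reads in cTKO, against 296 and 262 in WT (log2 fold change 0.98, DESeq2 adjusted p 0.0438 in the authors' deposited table). Tpp1, a tripeptidyl peptidase, had a log2 fold change of -0.68 and did not pass (DESeq2 adjusted p 0.115 in the same deposited table of the authors). Lgmn, the asparaginyl protease that matures several cathepsins, was low, with 4.97 and 8.70 normalized reads in cTKO and 26.4 and 15.0 in WT. By limma none of the 13 passed.

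Of 30 genes for lysosomal glycosidases, lipases and sulfatases 2 rose and 2 fell by the authors' DESeq2 test, and by limma 2 rose and 0 fell. Arsb, a sulfatase, had 6614 and 4210.1 normalized reads in cTKO, against 709.8 and 859 in WT (log2 fold change 2.79, SE 0.33, DESeq2 adjusted p 8.82e-15, from the authors' deposited table), and Galc, a galactosidase of lipids, also rose. Hexa, a hexosaminidase subunit, and Lipa, the acid lipase, fell by 0.89 each on the log2 scale, per the authors' deposited table (DESeq2 adjusted p 0.0366 and 0.0352). Of 23 genes of the lysosomal membrane and of enzyme sorting 3 rose by the authors' DESeq2 test, and 1 by limma of the 22 with recovered reads. Gnptab and Igf2r, which tag lysosomal enzymes with mannose 6-phosphate and carry them, changed by 1.85 (SE 0.32, DESeq2 adjusted p 5.37e-07) and 1.61 (SE 0.44, DESeq2 adjusted p 0.00354), per the authors' deposited table. Igf2r had 4123 and 1352 normalized reads in cTKO, against 873 and 920 in WT, so its cTKO libraries differed by 3.05 times. The cholesterol transporter gene Npc1 rose as well.

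The proton pump that acidifies lysosomes had 16 tested genes, of which 1 rose, Atp6v0a1, from a low level, with 81 and 27 reads in cTKO, against 10 and 6 reads in WT. The median log2 fold change of the pump genes was -0.45, and 0 of them fell by the authors' DESeq2 test or by limma (3 were lower at an unadjusted p under 0.05 in each). Their summed normalized reads were 26996 and 36042 in cTKO, against 47558 and 39664 in WT.

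**Figure D4:**
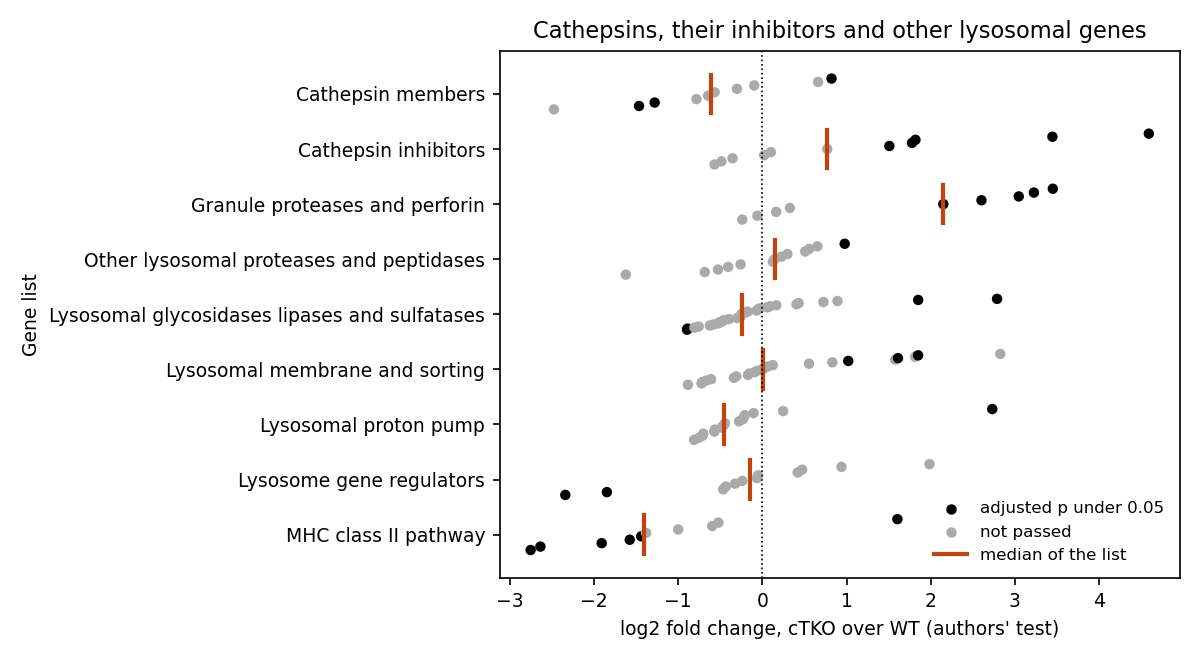
log2 fold change of every tested gene of the cathepsins and of 8 related lists in the authors' test, cTKO over WT; black points have an adjusted p under 0.05, grey points do not, and the orange bar is the list's median. The medians run from -1.41 for the MHC class II pathway to 2.15 for granule proteases and perforin, with the cathepsins at -0.60.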

How the data were processed

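Polyadenylated RNA of CD8 T cells from 2 cTKO and 2 WT mice was compared. STAR and DESeq2 were used, with the builds mm10 and GRCm38.p6, per the submitters' processing notes; the sources used here do not give the annotation, counting tool, strand handling or versions. The table is the authors' own comparison. Its mean normalized count is a signal over all 4 libraries, deposited by the authors. Fold changes and their standard errors are on the log2 scale, as the authors deposited them. The test score and the p-value, with its adjusted form, are also those the authors deposited. No header says which genotype is the numerator.

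Whole reads per library were the whole numbers that, divided by size factors of 1.21 and 0.805 (cTKO) and 1.21 and 0.866 (WT), gave the deposited mean and, in a negative binomial fit rebuilt here, the deposited fold change within 1e-09 on the log2 scale. Genes with a mean above 30000 (36 of them) were not searched. Dispersions implied by the standard errors were set beside a fitted balance between each gene's own spread and a trend over genes. They matched within 0.001 on the natural log scale for 9959 of 10039 genes (99.2%) and for 9 of the 10 members. Ctsd is among these 9, but its reads were chosen by this match, so for Ctsd it is no check. Ctsh is too low for this check. Ddx3y, with 0 and 1652 reads in cTKO and 0 and 1904 in WT, gave the sexes. The search set that form in advance, so it is no check of the labels. These reads were the closest in fold change of 522 splits that met the mean. For Xist the closest of 591 splits had 4871 and 28 reads in cTKO and 479 and 2 in WT, so the female libraries differed widely. The recovery and the limma fit were tested on simulated data. Intervals cover the fitted error only.

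A gene was called at the authors' adjusted p under 0.05. Alternatives were no filter, a mean of at least 100, re-centring, and limma (version 3.58.1, R 4.3.3) on log2(normalized reads + 0.5) or + 2, with sex as a block, or without each library. The sexes of the animals pair the libraries across genotypes by sex alone, not by animal, litter or batch. Members, gene lists and tests were chosen with earlier results of these data known. All members were named, and of each list up to 6 called genes by adjusted p, besides the inhibitor, class II and regulator lists. Genes outside this rule (Prf1, Tpp1, Lgmn and the markers of other cells) were named after their values were seen. Positions and promoters are RefSeq, GRCm38.p6; exon lengths and overlaps are GENCODE M21.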

Additional observations from a re-analysis of the deposited data

How the results depend on the processing

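Without a filter, with a mean of at least 100 and after re-centring, Ctsd, Ctsc and Ctss kept their calls. Of 109 values of single genes under the alternatives, 87 kept direction and side of the threshold, 18 lost the call, 1 gained it and 3 turned sign. The reversals were those of Ctsl: 0.0053 on the log2 scale after re-centring, 0.13 without the larger cTKO library and 0.14 without the smaller WT library, in a range of -0.33 to 0.14 over left-out libraries. Members called higher numbered 0 in limma with a pseudocount of 0.5 or 2 and with sex as replicate block, and members called lower 1 with 0.5, against 1 and 2 in the authors' test. Leaving out a library gave 0 for both directions each time. With sex as replicate block 3 members fell, as Ctsh joined (limma adjusted p 0.0380) and Ctsd did not pass (0.0891). Over all genes, 739 were higher with a mean of at least 100, against 1268, and 258 were lower in limma and 292 with a pseudocount of 2, against 468; leaving out a library gave 216 to 720 higher and 2 to 95 lower. The lone remaining library of a genotype is there assumed to vary like the other genotype's pair. The cause was not tested, beyond fewer genes or samples in the fit. Ctsh has no value with a mean of at least 100. Ctsb, Ctse and Ctsw, which did not pass, had unadjusted p-values of 0.0476, 0.0487 and 0.0452 in the authors' deposited table (DESeq2).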
